A study of Homo sapiens with 4 samples.

Results

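The 37 genes described here encode heterogeneous nuclear ribonucleoproteins (hnRNPs) and other RNA-binding proteins that regulate splicing. Their skipped exons were compared between parental MDA-MB-231 cells, a long-established line from a human breast cancer, and MDA-LM2 cells, which were derived from them and are highly metastatic to lung. A skipped-exon event belonged to a gene when its middle exon lay inside that gene on the same strand in GENCODE. By this rule 33 of the 37 genes had at least 1 listed event, with 182 events and 155 exons of the 44447 events and 37641 exons listed in all. HNRNPF, HNRNPH2, ELAVL1 and PCBP1 had none.

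The series holds 4 total RNA samples, 2 of untreated parental MDA-MB-231 cells and 2 of untreated MDA-LM2 cells, both grown in the same supplemented DMEM-based medium and without an engineered genetic change in the labels. The labels do not say whether samples came from separate cultures, nor how many clones make up either line. The deposited tables give 1 value per line and none per sample, so each line is treated here as 1 pooled library. Differences therefore have no replicate check, no p-value is given, and every interval covers error within a library only.

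HnRNPs coat nascent transcripts and bind short motifs in exons and introns, where many of them repress or promote the use of nearby splice sites. Many also bind their own pre-mRNA: raised protein favours an exon or intron that brings in an early stop codon, and nonsense-mediated decay (NMD) then removes the transcript. Their own skipped exons thus include those that alter the protein and those, called poison exons, that end its reading frame. Others lie in untranslated regions or in non-coding transcripts.

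The sequences printed next are those on which the results turn, 5′ to 3′ on the strand of the transcript, in hg38, from GENCODE release 29 transcripts. The exon is in capitals, and neighbouring coding bases of the same transcript are in lower case. The first 4 are coding exons for which the authors' deposited table gave a Bayes factor of at least 10 between the lines. Each has a length divisible by 3, so that skipping it keeps the reading frame.
HNRNPA2B1 36-nt exon, chr7:26197831-26197866, minus strand: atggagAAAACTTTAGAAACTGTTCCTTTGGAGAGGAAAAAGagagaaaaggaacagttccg
HNRNPD 147-nt exon, chr4:82356537-82356683, minus strand: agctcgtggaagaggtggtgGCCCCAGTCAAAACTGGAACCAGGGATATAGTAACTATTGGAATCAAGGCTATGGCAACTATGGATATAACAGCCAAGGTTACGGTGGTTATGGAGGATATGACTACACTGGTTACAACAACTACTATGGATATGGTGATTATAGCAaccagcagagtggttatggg
FUBP1 63-nt exon, chr1:77969022-77969084, minus strand: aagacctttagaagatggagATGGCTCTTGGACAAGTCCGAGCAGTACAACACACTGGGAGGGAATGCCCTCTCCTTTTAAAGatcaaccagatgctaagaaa
RALY 48-nt exon, chr20:34073819-34073866, plus strand: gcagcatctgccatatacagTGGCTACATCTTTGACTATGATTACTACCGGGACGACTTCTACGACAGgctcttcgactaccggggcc
The HNRNPA2B1 exon begins 6 coding bases after the start of translation and is the one that distinguishes hnRNP B1 from hnRNP A2. The HNRNPD exon separates the longer from the shorter isoforms of AUF1, a protein that binds AU-rich elements.

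The next 3 exons belong to related hnRNP D and A/B genes and occupy the same kind of place, the low-complexity end of the protein, and are shown to be read against the HNRNPD exon.
HNRNPDL 171-nt exon, chr4:82426463-82426633, minus strand: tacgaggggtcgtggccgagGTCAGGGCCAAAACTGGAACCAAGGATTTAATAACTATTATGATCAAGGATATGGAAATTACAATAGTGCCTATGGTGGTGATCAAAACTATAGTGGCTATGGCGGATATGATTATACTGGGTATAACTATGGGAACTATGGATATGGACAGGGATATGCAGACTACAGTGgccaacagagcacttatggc
HNRNPAB 141-nt exon, chr5:178210132-178210272, plus strand: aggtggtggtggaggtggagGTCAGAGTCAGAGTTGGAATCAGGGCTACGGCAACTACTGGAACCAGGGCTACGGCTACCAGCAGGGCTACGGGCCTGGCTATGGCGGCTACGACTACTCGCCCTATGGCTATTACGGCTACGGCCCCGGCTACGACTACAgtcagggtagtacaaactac
HNRNPA3 141-nt exon, chr2:177217705-177217845, plus strand: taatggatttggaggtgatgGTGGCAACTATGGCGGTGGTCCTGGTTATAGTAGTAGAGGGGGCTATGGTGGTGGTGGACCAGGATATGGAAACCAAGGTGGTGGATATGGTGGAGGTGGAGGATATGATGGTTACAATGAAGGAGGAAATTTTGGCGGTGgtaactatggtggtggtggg

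The last 5 exons are annotated in NMD transcripts only. Here the capitals run from the first base of the exon to the stop codon of the annotated frame, and what follows the stop codon is not printed.
RBM39 72-nt exon, chr20:35734186-35734257, minus strand: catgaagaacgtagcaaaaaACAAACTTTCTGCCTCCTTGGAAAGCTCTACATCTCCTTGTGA
RBM39 73-nt exon, chr20:35740525-35740597, minus strand: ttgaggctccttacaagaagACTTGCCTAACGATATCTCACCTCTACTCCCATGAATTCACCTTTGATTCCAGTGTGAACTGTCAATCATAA
RBM39 155-nt exon, chr20:35739393-35739547, minus strand: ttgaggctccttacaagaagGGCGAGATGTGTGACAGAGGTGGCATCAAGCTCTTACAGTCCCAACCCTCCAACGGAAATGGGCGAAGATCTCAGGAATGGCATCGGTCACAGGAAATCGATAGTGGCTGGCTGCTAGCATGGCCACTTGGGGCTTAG
HNRNPH1 134-nt exon, chr5:179621843-179621976, minus strand: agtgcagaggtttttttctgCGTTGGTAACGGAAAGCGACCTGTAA
HNRNPL 70-nt exon, chr19:38841613-38841682, minus strand: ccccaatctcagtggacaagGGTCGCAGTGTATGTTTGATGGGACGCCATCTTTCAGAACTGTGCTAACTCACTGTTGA
The capitals end with TGA in RBM39 72-nt and HNRNPL 70-nt, TAA in RBM39 73-nt and HNRNPH1 134-nt, and TAG in RBM39 155-nt. RBM39 73-nt and RBM39 155-nt follow the same upstream exon, as their lower-case bases show.

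In LM2, 39981 events were listed with 68691146 reads, and in parental cells 43626 events with 89285093 reads. Of these reads, 74.7% and 75.7% fit neither isoform of their event. At the events of the RNA-binding genes these shares were 65.7% and 66.5%. Of the genes known to be expressed in MDA-MB-231, 5 of 10 had a measured event (CD44, FN1, KRT8, AXL and ANXA1), and none differed 2-fold between the libraries. Of 10 epithelial and luminal genes 4 were measured, with CDH1 at 11 reads in LM2 and 13 in parental cells, and of 8 leukocyte and fibroblast genes none was. ERBB2, with 170 against 567 reads, and GATA3, with 13 against 57, were more than 2-fold lower in LM2 after scaling to the listed reads of each library. ESRP2, an epithelial splicing regulator, had 401 against 289 reads and stayed under 2-fold. The part of these genes in the results below was not tested.

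An exon was tested when both libraries had 10 or more inclusion and exclusion reads together and each kind of read was seen at least once. This left 109 exons at 92 sites that do not overlap, out of 14109 tested exons in all. The tested exons fell in the 33 genes with an event. These exons were read more deeply than most, with a median of 519 informative reads in LM2 and 615 in parental cells, against 74 and 92 over all tested exons. Their deposited intervals were accordingly narrow, with a median width of 0.05 in each line against 0.11 and 0.10. Depth therefore has to be kept level in any reading of their counts against the background.

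No exon of the 109 met the rule for a called difference, which asks the authors' deposited table for a Bayes factor of 10 or more and a level that differs by 0.2 or more. Over all 14109 tested exons the rule called 1.25%. The Bayes factor is the weight of the reads for a difference over none, and is not the odds that the lines differ. The inclusion level is the share of the form with the exon among the 2 isoforms of its event. Levels of overlapping exons come from separate events and can add up to more than 1. At a difference of at least 0.1 the authors' deposited table gave 3 exons of the 109, 2 higher in LM2 and 1 lower, against a background of 1.45% higher and 0.617% lower. These 3 were RALY 48-nt and RBM39 90-nt, both higher, and HNRNPDL 105-nt, lower.

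The differences were small and pointed both ways. The median difference over the 109 exons was 0, with quartiles of -0.01 and 0.02, and 88 exons (80.7%) lay within 0.05 of no difference, against 70.8% of all tested exons. The largest increase was 0.18 in RBM6 74-nt and the largest decrease -0.21 in TIA1 33-nt, both on few exclusion reads, and the authors' deposited table put their Bayes factors at 1.35 and 1.07.

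Once the minimum on the difference was dropped, a rule added after the data were seen, 11 exons in 8 genes had a Bayes factor of at least 10 in the authors' deposited table. Of these 6 were higher in LM2 and 5 lower, against a background of 1.79% and 0.801%, or 2.59% of all tested exons in either direction. Their differences ranged in size from 0.03 to 0.15. Where each library had 100 or more informative reads, 10 of 82 passed, against a background of 4.13% of 5545. With at least 10 reads of each kind over both libraries 10 of 65 passed, against 4.35% of 5722. The deposited intervals of the lines did not overlap in 13 of the 109 exons, against 3.23% of all tested exons. The read minimums set a floor only, and no background matched for depth was computed. None of these shares is thus a comparison at equal depth.

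**Figure D1:**
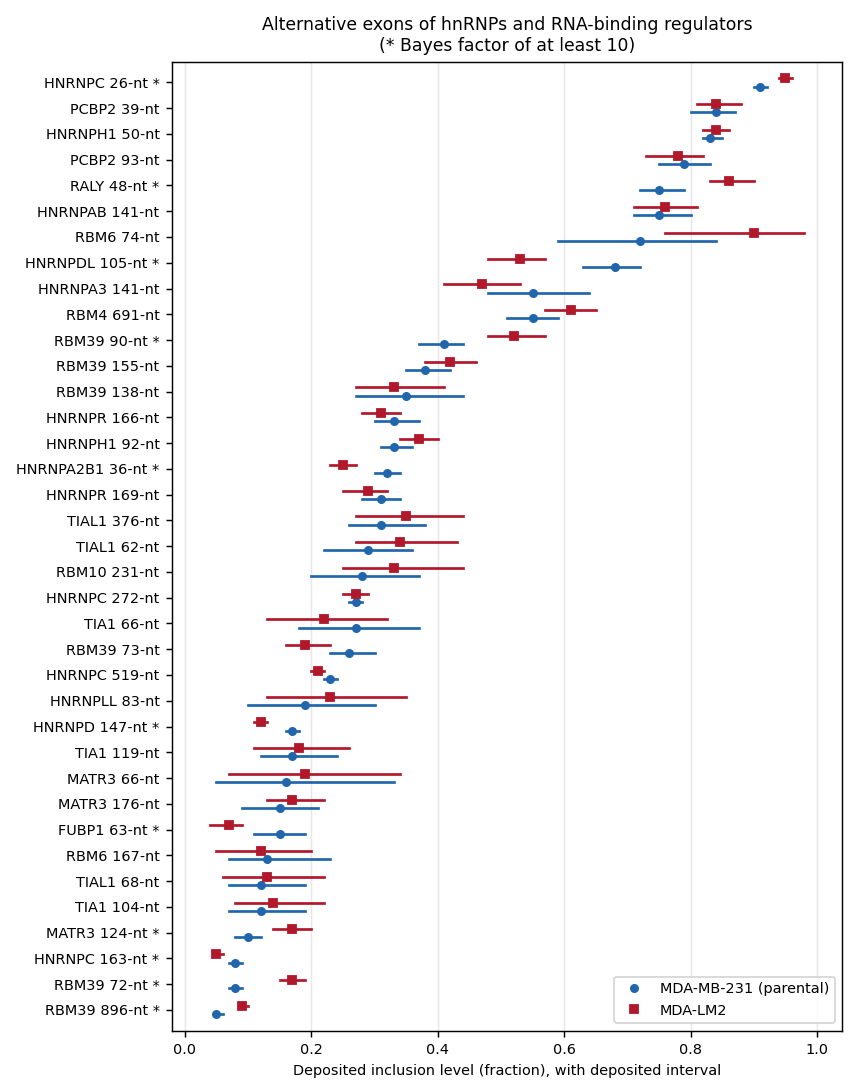
Deposited inclusion level (fraction, horizontal axis) of 37 exons of hnRNP and other RNA-binding genes in parental MDA-MB-231 (circles) and MDA-LM2 (squares), with the deposited interval of each level as a bar. Exons are those with a level of 0.1 to 0.9 in both lines and at least 10 exclusion reads over both libraries, plus those past a Bayes factor of 10 (asterisks). The lines' bars overlap in most exons, and where they part the levels differ by 0.15 at most.

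The same exons were compared through the raw reads, as the odds of inclusion over exclusion reads in LM2 over those in parental cells. The 95% interval of this read odds ratio excluded 1 in 20 of the 109 exons, 8 higher and 12 lower in LM2, against 3.17% and 3.04% of all tested exons, or 6.21% in either direction. At a depth of 100 or more informative reads it did so in 18 of 82, against 8.94%, and with 10 or more exclusion reads in 18 of 77, against 9.82%. Here too the minimums leave depth above them unmatched. Of the 11 exons with a Bayes factor of at least 10 in the authors' deposited table, 9 had a read interval that excluded 1 in the same direction. MATR3 124-nt had an interval that spanned 1, and RBM39 90-nt had a read ratio of opposite sign. Of 80 exons whose deposited levels differed at all, 64 had a read-based difference of the same sign. Counts over exons overstate the number of separate observations, since 45 of the 109 had the same exclusion counts as another tested exon of their gene.

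**Figure D2:**
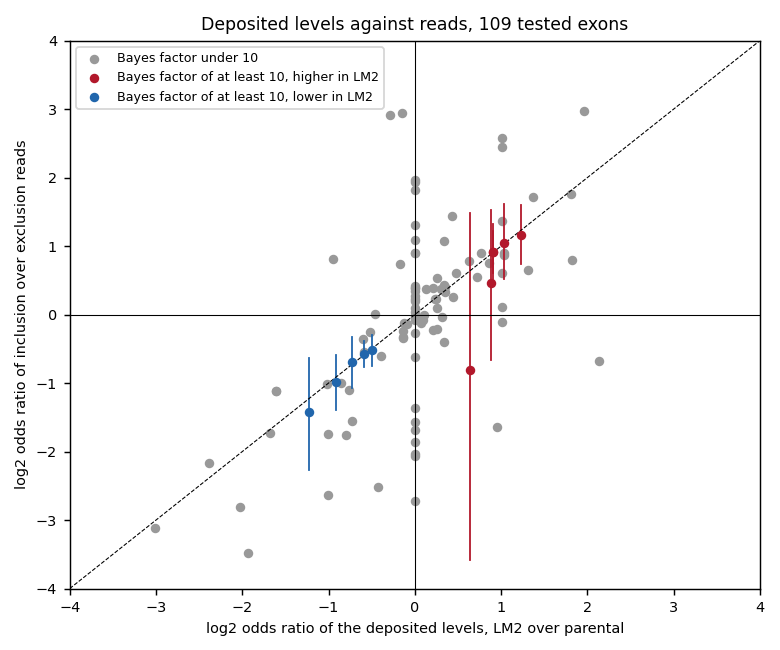
Each point is 1 of 109 exons. The horizontal axis is the log2 odds ratio of the deposited inclusion levels, LM2 over parental, and the vertical axis the log2 odds ratio of inclusion over exclusion reads, with 95% intervals for the 11 exons past a Bayes factor of 10. A dashed line marks where both are equal. The 5 exons lower in LM2 lie below 0 on both axes, and of the 6 higher exons RBM39 90-nt lies below 0 on the vertical axis only.

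Among the hnRNP A/B proteins, abundant nuclear proteins that repress many exons, the B1-specific exon of HNRNPA2B1 was included less in LM2. Its level was 0.25 (interval 0.23 to 0.27) in LM2 against 0.32 (0.30 to 0.34) in the parental line. LM2 had 446 inclusion and 1019 exclusion reads and parental cells 600 and 954, a log2 odds ratio of -0.52 (95% interval -0.75 to -0.30). The intervals of the lines did not overlap, and the authors' deposited table gave a Bayes factor of 504701000 for a difference of -0.07. In both lines the form without the exon, A2, was therefore the major one.

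The 156-nt exon of HNRNPA1, which lengthens its glycine-rich end, was rarely used and had the same level in both lines. HNRNPA1 156-nt had a level of 0.04 (0.04 to 0.05) in each line, from 306 inclusion and 2168 exclusion reads in LM2 and 343 and 2491 in parental cells. The read odds ratio was 0.04 on the log2 scale (-0.21 to 0.28). Reads of HNRNPA1 are uncertain in another way, since 75 annotated pseudogenes carry its name, and the sources do not state how reads with several matches were counted. HNRNPA3 and HNRNPC have 16 and 9 such pseudogenes.

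HNRNPAB 141-nt, the exon that separates the isoforms of that protein, was included at 0.76 (0.71 to 0.81) in LM2 against 0.75 (0.71 to 0.80) in the parental line. The reads were 702 and 55 against 641 and 46. HNRNPA3 141-nt had deposited levels of 0.47 (0.41 to 0.53) and 0.55 (0.48 to 0.64), but only 5 exclusion reads in each library beside 315 and 313 inclusion reads. PHYKPL lies on the opposite strand over the HNRNPAB exon, and since the strand setting of the counting is not given here, reads of the 2 genes cannot be told apart.

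In the hnRNP D family both members had an exon that was lower in LM2. HNRNPD 147-nt was included at 0.12 (0.11 to 0.13) in LM2 against 0.17 (0.16 to 0.18) in the parental line. Behind these levels stood 531 inclusion and 1119 exclusion reads in LM2 and 1059 and 1504 in parental cells, a log2 odds ratio of -0.57 (-0.76 to -0.38). The Bayes factor stood at the cap of the authors' deposited table. HNRNPD 57-nt (chr4:82371528-82371584), the other alternative coding exon of AUF1, stayed at 0.97 in both lines, with 901 inclusion and 23 exclusion reads against 1228 and 26. HNRNPD 107-nt, annotated in NMD transcripts only, was almost never included, with 2 inclusion and 1104 exclusion reads against 22 and 1601. Its log2 odds ratio was -2.63 (-6.06 to -0.89), while its Bayes factor was 0 in the authors' deposited table. The differences among these exons of 1 gene were not tested.

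HNRNPDL 105-nt (chr4:82425563-82425667) lies after the stop codon and is annotated in NMD transcripts only. Inclusion of this exon adds a splice junction downstream of the stop codon, where junctions can trigger decay. Skipping it still leaves a junction there, and distances from the stop codon were not measured. The level of HNRNPDL 105-nt was 0.53 (0.48 to 0.57) in LM2 against 0.68 (0.63 to 0.72) in the parental line. It came from 302 inclusion and 217 exclusion reads against 332 and 120. This was the widest gap among the 11 exons, at -0.15, and its Bayes factor was 346984 by the authors' deposited table. The log2 read odds ratio was -0.99 (-1.40 to -0.59). HNRNPDL 171-nt, the repeat-rich coding exon of the same gene, was at 0.97 (0.96 to 0.98) in both lines.

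The paralogous coding exons share a repeat that was picked from their own sequences, so its excess in them is no independent result. The 6-letter motifs GGNTAT and GGNTAC, searched on the exon strand only and chosen after the sequences had been viewed, occurred 9 times in HNRNPAB 141-nt and 8 times in HNRNPD 147-nt. HNRNPA3 141-nt and HNRNPDL 171-nt held 6 each. Of 3608 tested coding exons of 100 to 200 nt, 14.6% held at least 1 such motif and 10 (0.277%) held 3 or more. Of those 10, 6 lay in the genes described here, which had 25 coding exons of that length. HNRNPA1 156-nt, at a level of 0.04 in both lines, was among these 6 with 5 motifs, and HNRNPUL1 192-nt with 3. In the 4 exons with 6 or more motifs the parental levels ran from 0.17 (HNRNPD) through 0.55 (HNRNPA3) and 0.75 (HNRNPAB) to 0.97 (HNRNPDL). The HNRNPA3 level rests on 5 exclusion reads in each library. HNRNPD 147-nt was the 1 of these 4 with a Bayes factor of at least 10 in the authors' deposited table.

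HNRNPC binds uridine tracts and masks them from other factors, and RALY is its relative. In HNRNPC 10 exons were tested, and 8 of them lay upstream of the translation start or in non-coding forms of that region. HNRNPC 26-nt (chr14:21263311-21263336, 5′ UTR) was included at 0.95 (0.94 to 0.96) in LM2 against 0.91 (0.90 to 0.92) in the parental line. HNRNPC 26-nt had 2136 inclusion and 79 exclusion reads against 2644 and 185, a log2 odds ratio of 0.91 (0.52 to 1.33). HNRNPC 163-nt (chr14:21263667-21263829, 5′ UTR) went the other way, at 0.05 (0.05 to 0.06) against 0.08 (0.07 to 0.09), from 190 and 237 reads against 324 and 249. Its log2 odds ratio was -0.70 (-1.07 to -0.32), and the authors' deposited table gave both exons a Bayes factor of at least 10.

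Longer versions of the 26-nt exon show how far levels and reads can part. HNRNPC 519-nt and HNRNPC 272-nt end at the same donor site and share its 79 and 185 exclusion reads. HNRNPC 272-nt had a level of 0.27 in both lines and HNRNPC 519-nt 0.21 in LM2 against 0.23 in parental cells. By reads both were higher in LM2, with log2 odds ratios of 0.90 (0.50 to 1.31) and 0.75 (0.35 to 1.16), which for the 519-nt exon is the opposite direction to the deposited levels. Since the exclusion reads are the same in all 3, these ratios are not separate observations. Of the coding exons, HNRNPC 161-nt (chr14:21211406-21211566) had levels of 0.45 and 0.50 with 0 and 5 exclusion reads beside 1325 and 1934 inclusion reads.

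RALY 48-nt, a coding exon, was included more in LM2. Its level was 0.86 (0.83 to 0.90) in LM2 against 0.75 (0.72 to 0.79) in the parental line. Inclusion reads numbered 434 in LM2 and 494 in parental cells, and exclusion reads 48 and 114. The log2 odds ratio was 1.05 (0.52 to 1.61), and the authors' deposited table gave a Bayes factor of 75.1 for a difference of 0.11. RALY 117-nt in the 5′ UTR was at 0.12 (0.09 to 0.16) against 0.07 (0.05 to 0.09), a log2 read odds ratio of 0.75 (0.03 to 1.49). The authors' deposited table put its Bayes factor at 1.32.

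**Figure D3:**
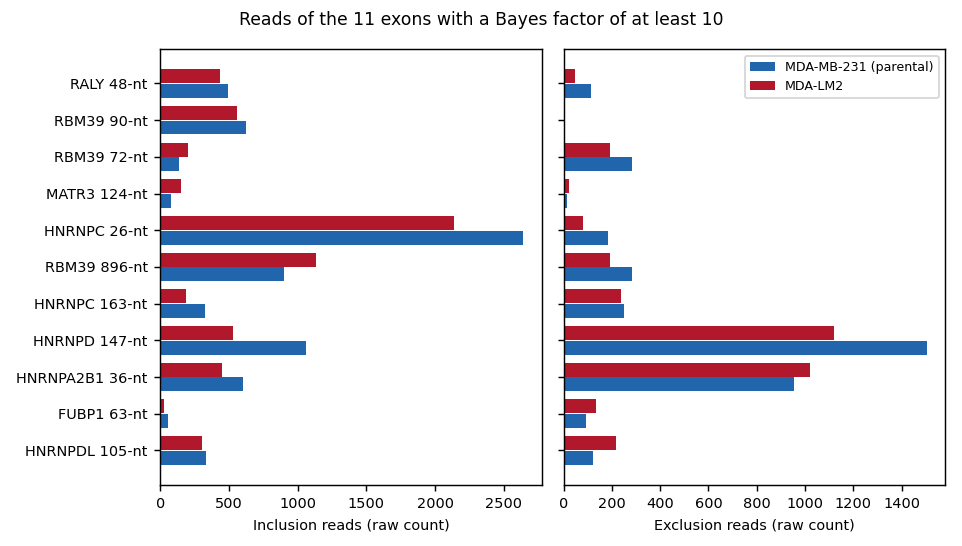
Raw inclusion reads (left) and exclusion reads (right) of the 11 exons with a Bayes factor of at least 10, ordered by their difference in level, in parental MDA-MB-231 and MDA-LM2. Both axes start at 0 and the counts are not scaled to library size. RBM39 90-nt has 5 and 3 exclusion reads, which are too few to see as bars, and in HNRNPDL, FUBP1 and HNRNPA2B1 exclusion reads are more numerous in LM2 although its library is smaller.

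The hnRNP H genes encode proteins that bind runs of guanines. All 10 tested exons of HNRNPH1 and HNRNPH3 lay within 0.05 of no difference, and none had a Bayes factor of at least 10 in the authors' deposited table. HNRNPH1 50-nt (chr5:179615546-179615595) was an alternative coding exon at 0.84 (0.82 to 0.86) in LM2 against 0.83 (0.82 to 0.85) in the parental line. Its 1637 inclusion and 241 exclusion reads against 2106 and 308 gave a log2 odds ratio of -0.01 (-0.28 to 0.26). The poison exon HNRNPH1 134-nt was at 0.08 (0.07 to 0.09) against 0.06 (0.05 to 0.07), with 360 and 881 reads against 372 and 1087. Its read interval just excluded no difference, at 0.26 (0.01 to 0.51), and its Bayes factor in the authors' deposited table was 3.38. HNRNPH1 138-nt and HNRNPH1 106-nt, overlapping 5′ UTR exons that share 16 and 5 exclusion reads, had read odds that were lower in LM2, at -2.04 (-4.14 to -0.33) and -2.52 (-5.17 to -0.27). Their deposited levels were 0.07 in both lines and 0.03 against 0.04. HNRNPH3 139-nt was at 0.93 and 0.95.

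Of the proteins with KH domains, a fold that holds single-stranded RNA, FUBP1 was the one with an exon past a Bayes factor of 10. FUBP1, the far upstream element binding protein that also acts on splicing, included its 63-nt exon at 0.07 (0.04 to 0.09) in LM2 against 0.15 (0.11 to 0.19) in the parental line. Inclusion reads numbered 28 in LM2 and 53 in parental cells, and exclusion reads 135 and 94, so that the inclusion count was lower and the exclusion count higher in the smaller library. The log2 odds ratio was -1.43 (-2.26 to -0.64), and the authors' deposited table gave a Bayes factor of 15.41.

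PCBP2, a poly(C)-binding protein that acts in splicing and translation, had levels within 0.01 between the lines. It had 3 alternative coding exons, at 0.78 (0.73 to 0.82) against 0.79 (0.75 to 0.83) for PCBP2 93-nt, 0.94 against 0.93 for PCBP2 42-nt, and 0.84 (0.81 to 0.88) against 0.84 (0.80 to 0.87) for PCBP2 39-nt. Exclusion reads were 52 and 61, 27 and 42, and 55 and 64. The read odds intervals of all 3 spanned no difference, the widest from -0.51 to 1.02. HNRNPK 72-nt was at 0.95 in both lines, with 81 and 110 exclusion reads beside 3534 and 4180 inclusion reads. KHDRBS1, the Sam68 protein, had 1 tested exon at 0.99 in both lines, and FUBP3 133-nt was at 0.14 (0.08 to 0.21) against 0.09 (0.04 to 0.15).

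HNRNPL, which binds CA repeats, and HNRNPLL, its relative known from T-cell splicing, each had a poison exon. HNRNPL 70-nt was almost never included, with 11 inclusion reads beside 2377 exclusion reads in LM2 and 20 beside 2760 in parental cells. The log2 odds ratio was -0.62 (-1.86 to 0.49). HNRNPLL 83-nt (chr2:38577920-38578002) was used far more at 0.23 (0.13 to 0.35) and 0.19 (0.10 to 0.30), though from 41 and 40 informative reads. HNRNPLL 102-nt, a coding exon, was at 0.95 and 0.97.

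HNRNPR and SYNCRIP, a pair of close paralogs that bind mRNA in nucleus and cytoplasm, had levels within 0.05 of each other between the lines in all 5 exons. HNRNPR 166-nt and HNRNPR 169-nt are the same exon with acceptor sites 3 bases apart and share 245 and 246 exclusion reads. HNRNPR 166-nt was at 0.31 (0.28 to 0.34) against 0.33 (0.30 to 0.37), and the read interval reached no difference, at -0.33 (-0.66 to 0.00). SYNCRIP 160-nt was at 0.97 against 0.95. In HNRNPU, the scaffold attachment factor, HNRNPU 72-nt was included at 1.00 in both lines with 2 exclusion reads in each. HNRNPU 100-nt, an NMD exon, was at 0.38 (0.22 to 0.62) against 0.24 (0.12 to 0.42), from 18 and 2 reads against 11 and 0.

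HNRNPUL1 had 3 overlapping coding exons whose levels were higher in LM2 on few exclusion reads. The exons HNRNPUL1 222-nt, 192-nt and 36-nt end at the same base (chr19:41305646-41305867 for the longest). Their levels were 0.64 against 0.56, 0.87 against 0.73, and 0.93 against 0.79, and the Bayes factor of the 192-nt exon was 9.04 in the authors' deposited table. All 3 rest on the same 2 and 4 exclusion reads, and the read interval of the 192-nt exon ran from -2.00 to 4.27 on the log2 scale. TGFB1 overlaps them on the opposite strand.

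TIA1 and TIAL1, which bind uridine-rich sequence after weak 5′ splice sites, had 11 tested exons, and neither measure set any of them apart between the lines. TIAL1 376-nt, annotated in NMD transcripts only, was at 0.35 (0.27 to 0.44) in LM2 against 0.31 (0.26 to 0.38) in the parental line. TIAL1 62-nt was at 0.34 (0.27 to 0.43) against 0.29 (0.22 to 0.36), from 42 inclusion and 65 exclusion reads against 50 and 105. TIA1 119-nt, likewise an NMD exon, was at 0.18 against 0.17, and TIA1 66-nt at 0.22 against 0.27. TIA1 33-nt, the exon that separates the TIA1 isoforms, was at 0.68 (0.46 to 0.88) against 0.89 (0.67 to 0.99), from 25 and 4 reads against 31 and 0. Its intervals overlapped, and this depth cannot show whether the exon differed.

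RBM39, a splicing factor related to U2AF and the target of aryl sulfonamide degraders, had 10 tested exons of 12 listed. RBM39 72-nt, a poison exon, was at 0.17 (0.15 to 0.19) in LM2 against 0.08 (0.07 to 0.09) in the parental line. LM2 had 201 inclusion and 191 exclusion reads and parental cells 133 and 285, so the count of inclusion reads was higher in the smaller library. The log2 odds ratio was 1.17 (0.75 to 1.60) and the Bayes factor stood at the cap of the authors' deposited table. RBM39 896-nt (chr20:35734186-35735081), which contains the 72-nt exon and shares its exclusion reads, was at 0.09 against 0.05, with a log2 odds ratio of 0.91 (0.61 to 1.22).

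At another place in RBM39 the poison exons had other values. RBM39 155-nt was at 0.42 (0.38 to 0.46) in LM2 against 0.38 (0.35 to 0.42) in the parental line, from 764 and 212 reads against 735 and 239, with a log2 odds ratio of 0.23 (-0.08 to 0.54). RBM39 73-nt, which is joined to the same upstream exon and shares those exclusion reads, was at 0.19 (0.16 to 0.23) against 0.26 (0.23 to 0.30). Its 146 inclusion reads against 241 gave a log2 odds ratio of -0.55 (-0.96 to -0.14), and its Bayes factor was 2.7 in the authors' deposited table. RBM39 138-nt, a further poison exon, was at 0.33 (0.27 to 0.41) against 0.35 (0.27 to 0.44). Of the 6 NMD-only exons of RBM39, the read interval lay above no difference in RBM39 72-nt, below it in RBM39 73-nt, and spanned it in the other 4, among them RBM39 156-nt and RBM39 53-nt, each at 0.02 or less in both lines.

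RBM39 90-nt (chr20:35729462-35729551) had a level and a ratio of inclusion to exclusion reads that pointed opposite ways. Its level was 0.52 (0.48 to 0.57) in LM2 against 0.41 (0.37 to 0.44) in the parental line, and the Bayes factor was 65.34 in the authors' deposited table. Inclusion reads numbered 561 and 624 and exclusion reads 5 and 3, which gives a log2 odds ratio of -0.81 (-3.58 to 1.48). The reads that fit both isoforms numbered 2051 and 2966. A 66-nt exon that ends at the same donor site and shares these exclusion and common reads was at 0.97 against 0.88, so 2 overlapping versions of 1 exon had very different levels.

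In the other RBM proteins every read interval spanned no difference. No exon of theirs had a Bayes factor of at least 10 in the authors' deposited table. RBM4 691-nt was at 0.61 (0.57 to 0.65) against 0.55 (0.51 to 0.59) with 9 and 11 exclusion reads beside 1086 and 1044 inclusion reads. RBM10 231-nt, the exon that separates the long and short RBM10 isoforms, was at 0.33 (0.25 to 0.44) against 0.28 (0.20 to 0.37), from 61 and 5 reads against 50 and 9. RBM6 74-nt, with the largest increase in level, was at 0.90 (0.76 to 0.98) against 0.72 (0.59 to 0.84), from 43 and 2 reads against 48 and 9. RBM5 74-nt was at 0.96 (0.87 to 1.00) against 0.86 (0.76 to 0.94), with 0 and 7 exclusion reads, and RBM5-AS1 lies opposite. RBM25 105-nt, an NMD exon, had 4 inclusion reads beside 280 exclusion reads in LM2 and 1 beside 510 in parental cells. Of the 26 exons of RBM genes, those of RBM39 included, 17 had a higher and 5 a lower level in LM2. Of all 14109 tested exons 6240 were higher and 5466 lower. Of the 26, 19 lay within 0.05 of no difference. Several overlap and share exclusion reads, so they are not separate observations, and their direction was not tested.

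TARDBP, MATR3, TAF15 and EWSR1 encode nuclear RNA-binding proteins known from inherited neurodegeneration and, for the last pair, from sarcoma fusions. MATR3 124-nt (chr5:139279935-139280058, 5′ UTR) was at 0.17 (0.14 to 0.20) in LM2 against 0.10 (0.08 to 0.12) in the parental line, and the authors' deposited table put its Bayes factor at 12954.8. Its inclusion reads were 151 against 77 and its exclusion reads 23 against 16, a log2 odds ratio of 0.46 (-0.66 to 1.52). The exon lies in the region that MATR3 shares with the snoRNA host gene SNHG4, with SIL1 on the opposite strand, so its reads cannot be assigned to MATR3 alone. MATR3 1089-nt, a coding exon, was at 0.97 (0.96 to 0.98) against 0.99 (0.98 to 0.99), with 25 and 10 exclusion reads beside 8554 and 7635 inclusion reads.

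TAF15 85-nt (chr17:35820164-35820248) was at 0.98 (0.95 to 0.99) in LM2 against 1.00 (0.99 to 1.00) in the parental line. Its exclusion reads numbered 5 and 1 beside 564 and 1084 inclusion reads, a log2 odds ratio of -2.82 (-8.83 to -0.10). TAF15 76-nt shares these exclusion reads and was at 0.80 (0.69 to 0.92) against 0.97 (0.90 to 0.99), while the authors' deposited table put its Bayes factor at 2.1. In TARDBP all 4 tested exons were within 0.01 between the lines, among them TARDBP 132-nt, an NMD exon, at 0.02 in both with 571 and 752 exclusion reads. EWSR1 168-nt was at 0.99 in both.

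Taken by annotation, 57 of the 109 exons were coding, 19 were annotated in NMD transcripts only, 17 lay in the 5′ UTR, 13 in other non-coding transcripts and 3 matched no annotated exon. Coding exons had median levels of 0.94 in LM2 and 0.93 in parental cells, and 34 of the 57 (59.6%) had a length divisible by 3, against 50.3% of all tested coding exons. The NMD-only exons made up 17.4% of the set, close to the 16.5% of all tested exons. Their median level was 0.17 in LM2 and 0.08 in parental cells, against 0.06 and 0.05 over all NMD-only exons, while the median of their differences was 0. By its Bayes factor in the authors' deposited table, RBM39 72-nt alone of the 19 was higher and HNRNPDL 105-nt alone lower. Of all 2334 NMD-only exons tested, 25 were higher and 10 lower. By the read odds interval 2 of the 19 were higher and 3 lower, beside 94 and 73 of the 2334. Introns beside the exons were short, with medians of 1489 bases upstream and 872 downstream against 2296 and 2221 over all tested exons.

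Of the 109 exons, 39 (35.8%) had levels of 0.1 to 0.9 in both lines, against 37.4% of all tested exons, 34 were over 0.9 in both and 26 under 0.1 in both. In 8 of the 39 the level rested on fewer than 10 exclusion reads over both libraries, as in HNRNPC 161-nt, HNRNPR 177-nt and RBM39 90-nt. A further 46 exons were compared by the authors but not tested here, 42 because no read of one kind was found in either library. RBM39 78-nt (chr20:35713019-35713096) was 1 of these. The authors' deposited table gave it a difference of 0.28 and a Bayes factor of 253171.14, with levels of 0.68 (0.59 to 0.78) in LM2 against 0.40 (0.34 to 0.46) in the parental line. Neither library had an exclusion read for it, beside 258 and 195 inclusion reads and 799 and 1032 reads that fit both isoforms.

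The reads of a gene's best covered event, scaled to the listed reads of its library (RPM), give the only view of transcript level in these data. They count reads of 3 classes (inclusion, exclusion and both) and depend on which event is listed, so only the ratio between libraries is read and genes are not ranked by level. None of the 33 genes differed 2-fold, against a background of 3.62% higher and 8.06% lower in LM2 over 10213 genes. That background holds genes with as few as 20 reads, and it was not matched for depth. The ratio of LM2 to parental cells ran from 0.667 (95% interval 0.608 to 0.731) in TAF15 to 1.59 (1.21 to 2.11) in FUBP3.

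Smaller ratios had intervals that excluded 1 in 23 of the 33 genes, 15 higher and 8 lower, against 26.1% and 32.6% of all genes. Genes with more reads have narrower intervals, and no gene background matched for depth was computed. Neither these shares nor those below compare genes at equal depth. The split into higher and lower genes depended on the scaling and, for some genes, on which event and which reads were counted. Scaled to inclusion plus exclusion reads alone, which moved the median of all genes by -0.15 on the log2 scale, it was 10 higher and 19 lower, and centred on the median gene 20 higher and 4 lower. With only inclusion and exclusion reads counted for each gene, it was 16 higher and 8 lower. The best covered event was then chosen anew by these reads, so it could change. The ratio of RBM5 went from 0.924 to 1.39 at the same 64-nt exon. That of MATR3 went from 0.990 to 1.46 as its event changed from a 122-nt exon to the 1089-nt exon. Summed over all its events, the MATR3 ratio was 1.38. Under 4 scalings that left each gene's event and read classes unchanged, 10 genes were higher and 4 lower, against 17.7% and 28.3% of all genes. The 10 were HNRNPA2B1, HNRNPA3, HNRNPAB, HNRNPDL, SYNCRIP, RBM4, RBM10, FUBP1, FUBP3 and EWSR1, and the 4 were HNRNPD, RBM25, KHDRBS1 and TAF15.

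HNRNPDL had 6560 reads in LM2 and 6293 in parental cells, 95.5 and 70.5 RPM and a ratio of 1.35 (1.31 to 1.40). HNRNPD, its paralog, had 4921 and 7412 reads, 71.6 and 83.0 RPM and a ratio of 0.863 (0.832 to 0.895). The family members thus lay on opposite sides of 1, although an exon of each was less included in LM2. HNRNPAB stood at 53.9 against 39.6 RPM (ratio 1.36), HNRNPA2B1 at 41.4 against 31.9 (1.30) and HNRNPA3 at 149 against 113 (1.32), while HNRNPA1 stood at 241 against 235 (1.03). FUBP1 had 274 against 259 reads, a ratio of 1.38 (1.16 to 1.64), and RBM10 had 200 against 181, a ratio of 1.44 (1.17 to 1.77). TAF15 had 705 against 1374 reads, RBM25 had 1028 against 1719 at a ratio of 0.777 (0.719 to 0.840), and KHDRBS1 1333 against 2099 at 0.825 (0.770 to 0.885).

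**Figure D4:**
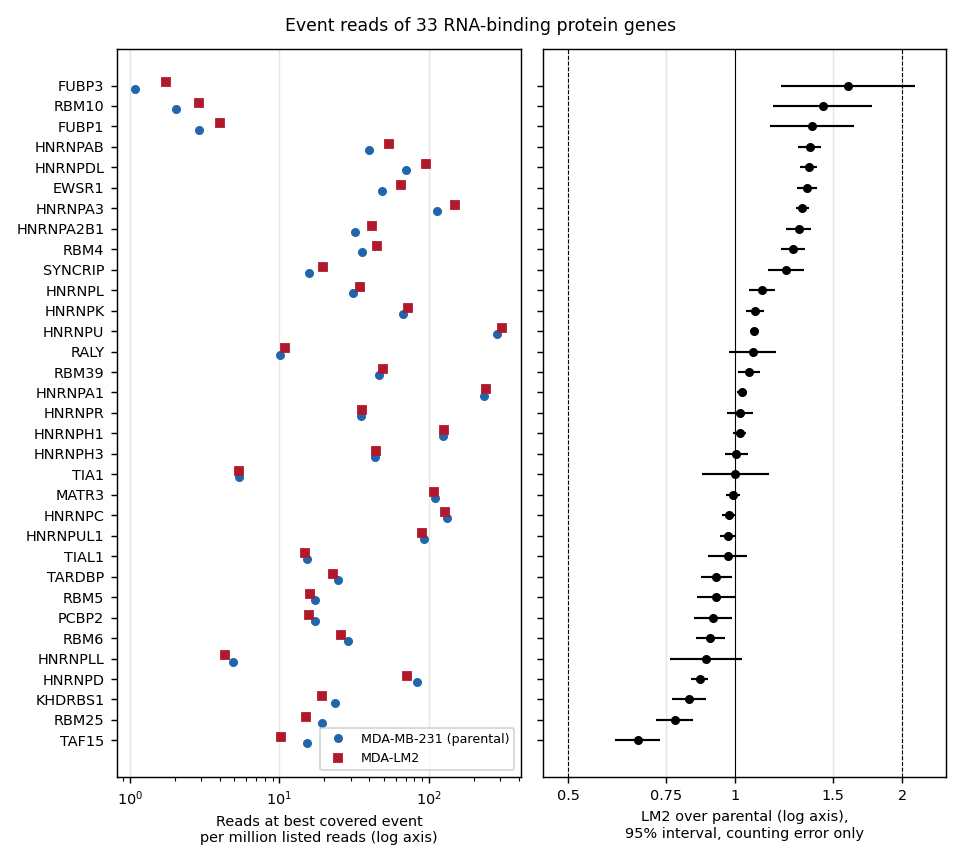
Left, reads at the best covered event of each of 33 genes in RPM, scaled to all listed reads (log axis) in parental MDA-MB-231 (circles) and MDA-LM2 (squares). Right, their ratio, LM2 over parental (log axis), with its 95% interval for counting error only, a solid line at 1 and dashed lines at 0.5 and 2. All 33 ratios lie between 0.667 in TAF15 and 1.59 in FUBP3, inside the dashed lines.

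A list of 59 other RNA-binding proteins was read the same way, and 48 of them were measured. None was 2-fold higher, and 2 were lower, NOVA1 with 3 against 26 reads and CPEB2 with 42 against 172. Of the 117 tested exons of this list, 5 met the rule for a called difference in the authors' deposited table, all higher in LM2, where the 37 genes had 0 of 109. Among them were exons of LARP1, RBM14, RBM23 and STAU1, each with at most 10 exclusion reads over both libraries. FMR1 63-nt (chrX:147938099-147938161), a coding exon of the fragile X protein, was not among the 5. It was at 0.27 (0.19 to 0.36) in LM2 against 0.11 (0.07 to 0.16) in the parental line. The authors' deposited table gave it a difference of 0.16 and a Bayes factor of 25.6. Its 37 inclusion and 35 exclusion reads against 21 and 63 gave a log2 odds ratio of 1.64 (0.61 to 2.73). The difference between the lists was not tested.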

How the data were processed

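The members and lists were chosen with earlier results of these data known. Per the submitters' processing notes, STAR 2.7 and the hg38 build were used, and libraries were made with ScriptSeq v2, per the labels' protocols. Not given in the sources used here are MISO's version, settings, event annotation, strand setting and pooling of replicates. The deposited inclusion level is a fraction, MISO's posterior mean with its interval, per the file headers. The same deposited files give raw read counts in 4 classes. In the authors' deposited table the difference is a score (LM2 minus parental level) and the Bayes factor a ratio, capped at 1e+12.

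One event stood for each exon, the one with the highest sum of inclusion and exclusion reads. For the read odds 0.5 was added to each count, and exact conditional 95% intervals came from R 4.3.3, tested on simulated reads. Gene reads were compared with exact binomial 95% intervals, for genes with at least 20 reads. Intervals cover counting error only, and PCR copies are not independent molecules. Named exons were each gene's best covered exon, those past a Bayes factor of 10 whose level differed by 0.1 or more, and up to 3 exons per gene with levels of 0.1 to 0.9 and 20 reads per library. Others named were chosen after their values were seen. Alternatives changed read minimum, call rule, level estimate and scaling. No column of samples was left unused. One exon of another RNA-binding gene and one exon sequence are not reported here.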

Additional observations from a re-analysis of the deposited data

How the results depend on the processing

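No paired analysis was possible because the deposited tables hold no value per replicate, and leaving out each replicate was not run for the same reason. The count of 0 called exons held at a minimum of 20 reads, at a Bayes factor of at least 5, with every event counted and with exons of 1 gene only. It was 1 with no read minimum (RBM39 78-nt, without exclusion reads), 3 at a difference of at least 0.1, and 11 by Bayes factor alone, or 10 with at least 100 reads and 10 with at least 10 reads of each kind, the last 3 rules being chosen after seeing the data. More exons enter under the looser rules by their construction. The median difference was 0, and 0.000191 with levels from reads. With reads in place of deposited levels the difference of RBM39 90-nt turned to -0.00799, and 39 of 48 named exons with a difference kept its sign. The odds ratio was past 2-fold in 41 exons from reads and 27 from deposited levels, and the cause was not tested. Read intervals excluded 1 in 20 exons, 18 with at least 100 reads and 18 with at least 10 exclusion reads. No gene was past 2-fold under any scaling, and intervals excluded 1 in 23 to 29 genes. Where exclusion reads were few, the read odds had wide intervals.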

Other observations

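One event of these genes was listed in a single line. It was a 66-nt exon of MATR3 in the parental table, with a level of 0.21, no inclusion read and 2 exclusion reads. The LM2 table did not list it.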
